A study of Mus musculus with 6 samples.

Results

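The BCL2 family decides whether a cell keeps its mitochondrial outer membrane intact or dies by the intrinsic pathway of apoptosis. The 10 genes described here were chosen by name and role, as 3 pro-survival genes (Bcl2, Bcl2l1 and Mcl1), 2 effectors (Bax and Bak1) and 5 BH3-only genes (Bid, Bad, Bcl2l11, Bbc3 and Pmaip1). All 10 were found in the deposited table of 56636 genes, each under 1 identifier. They were measured by RNA sequencing in RAW264.7, a mouse macrophage-like cell line labelled WT, after 24 h with a compound abbreviated 25-HC in the labels (3 libraries) or with its vehicle (3 libraries). The labels spell out neither the compound's name nor its dose. Nothing states that the libraries of a group were grown as separate cultures, and the p-values therefore measure only the spread between libraries, which may be technical. The series title sets the work in the control of cholesterol by a microRNA from cancer cells and in metastasis.

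In healthy cells the pro-survival proteins bind and hold the effectors and the BH3-only proteins. BH3-only proteins are the sensors of the family: stress raises or activates them, and they then occupy the pro-survival proteins or engage the effectors directly. Freed effectors form pores through which cytochrome c leaves the mitochondrion, which starts caspase activation. Much of the control over this family is by cleavage, phosphorylation and protein turnover, which RNA levels do not measure.

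No member passed the test between 25-HC and vehicle, and the tested members furthest from the vehicle library most like the treated ones, vehicle 3, were 2 BH3-only genes. Bbc3 (ENSMUSG00000002083) encodes PUMA. It had a mean of 53.4 ± 2.84 TPM in 25-HC and 17.0 ± 13.1 TPM in vehicle (SD, n = 3 each). Bbc3 was higher in every 25-HC library than in every vehicle library, as were 22.6% of all genes tested. Bcl2l11 (ENSMUSG00000027381), which encodes BIM, was at 16.8 ± 1.68 TPM in 25-HC and 17.2 ± 12.1 TPM in vehicle (SD, n = 3 each), but was 0.550-fold in 25-HC relative to vehicle 3. TPM is a level scaled for transcript length and for the total of the library. Of the 9 members with a mean of at least 1 TPM, 0 passed the limma test on log2(TPM + 1) with Benjamini-Hochberg adjustment over all 12092 genes tested, and only Bbc3 had an unadjusted p under 0.05. The adjusted test passed 0.00827% of all genes. At an unadjusted limma p under 0.05, 996 of the 12092 genes were higher in 25-HC and 356 were lower.

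Several features of the libraries bear on every value below. The 25-HC libraries were near-identical (Pearson r across genes 0.972 to 0.976), while the vehicle libraries were scattered (0.807 to 0.938), with vehicle 3 nearest to the treated ones (0.963 to 0.965). Vehicle 2 stood apart, with 9492 genes at 1 TPM or more, against 11971 to 12005 in 25-HC and 11238 and 11994 in vehicle 1 and 3. Ribosomal protein genes took 37.4% of its TPM, against 22.8% to 23.1% in 25-HC and 26.8% and 21.0% in vehicle 1 and 3, and the part of this in the group differences was not tested. Relative to vehicle 2, the median log2 difference of 25-HC went up with transcript length, at -0.061 in the shortest of 12 equal bins of genes and 1.63 in the longest. Relative to vehicle 1 these medians were -0.17 and 0.82, and relative to vehicle 3 they were -0.013 and -0.012. All 10 macrophage markers reached 1 TPM in at least 1 library, and they summed to 3418 to 3478 TPM in 25-HC and 2532 to 3415 TPM in vehicle. The 10 markers did not move together in vehicle 2, as its TPM values show beside the 25-HC range in brackets. Cd68 was at 824 (798.4 to 817.5), Tyrobp at 797 (881 to 920), Cd14 at 354 (362 to 374) and Spi1 at 134 (194 to 205). Lyz2 was at 366 (870 to 892), Csf1r at 41.2 (153 to 183) and Fcgr1 at 13.8 (33.49 to 37.15). Adgre1 was at 1.15 (14.3 to 18.6), Itgam at 0.53 (62.4 to 71.4) and Ptprc at 0.28 (6.53 to 6.96). No lymphocyte, fibroblast or epithelial marker reached 1 TPM in any library, and 2 of 5 neutrophil markers did, with sums of at most 2.5 TPM in 25-HC and 2.57 TPM in vehicle. The fibroblast marker Pdgfra was listed at 0 throughout. In bulk RNA, fewer cells of a type and less RNA per cell cannot be told apart.

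Of all genes tested, 22.6% were higher in every 25-HC library than in every vehicle library. Among the members, Bbc3 and Bcl2 (not tested) were. Upstream sequences are shown for this pair and for Bcl2l11, which lay furthest below vehicle 3. Each is the 250 bases before an annotated start, from RefSeq on build GRCm38.p6, 5′ to 3′ on the strand of the gene, with the 5 letters TGACG (the core of the CRE, an element bound by CREB and ATF proteins) or their reverse complement in capitals. The build differs from the GRCm39 named in the submitters' processing notes, so these coordinates belong to the sequences alone. Bbc3 is on the plus strand at chr7:16309333-16309582, Bcl2 on the minus strand at chr1:106714291-106714540 and Bcl2l11 on the plus strand at chr2:128125788-128126037.
Bbc3: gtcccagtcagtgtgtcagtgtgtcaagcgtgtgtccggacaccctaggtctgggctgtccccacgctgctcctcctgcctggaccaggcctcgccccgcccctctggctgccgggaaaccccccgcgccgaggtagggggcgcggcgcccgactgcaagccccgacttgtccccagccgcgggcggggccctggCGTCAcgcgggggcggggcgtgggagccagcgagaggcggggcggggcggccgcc
Bcl2: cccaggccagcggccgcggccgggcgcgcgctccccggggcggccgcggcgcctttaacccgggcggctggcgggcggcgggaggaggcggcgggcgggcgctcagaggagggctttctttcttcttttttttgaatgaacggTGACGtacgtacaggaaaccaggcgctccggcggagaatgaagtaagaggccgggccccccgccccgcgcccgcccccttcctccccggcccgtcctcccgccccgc
Bcl2l11: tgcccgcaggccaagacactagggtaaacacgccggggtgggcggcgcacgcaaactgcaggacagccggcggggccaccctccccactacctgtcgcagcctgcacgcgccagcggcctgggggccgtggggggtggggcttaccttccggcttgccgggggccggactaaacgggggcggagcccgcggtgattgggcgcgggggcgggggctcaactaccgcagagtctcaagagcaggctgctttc

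RefSeq windows were searched for 9 members, in 15 windows. For the members, windows on chromosome 18, where Pmaip1 lies, were left out. TGACG, searched on both strands, was in 1 of the 3 Bbc3 windows, in the Bcl2 window and in none of the other member windows, and it was in 17.8% of all 32851 promoter windows of the mouse. The GC box, GGGCGG, was in 10 of the 15 member windows, from 7 of the 9 members, against 32.7% of all windows. The E-box, CACGTG, was in 2 of the 15, the Bax window and a Bbc3 window (6.02% of all windows), and TATAAA was in none (12.4%). The member windows had a GC content of 47.6% to 81.6%, against a median of 52.4% over all windows. All 4 motifs were searched on both strands. A match is a description of the letters, and no match says only that these letters are not in the window.

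Levels of the family ran from Bax at the top to Bcl2 at the bottom. Bax, the effector that is soluble in the cytosol until it is activated, was at 514, 528 and 515 TPM in 25-HC and at 582, 477 and 476 TPM in vehicle. It made up 41.4% to 42.5% of the summed TPM of the 10 genes in 25-HC, against 52.6%, 69.5% and 38.1% in vehicle 1, 2 and 3. In 25-HC the order of the means was Bax, Mcl1, Bak1, Bcl2l1, Bid, Bad, Bbc3, Pmaip1, Bcl2l11 and Bcl2, and no neighbours in that order overlapped. In vehicle all neighbours overlapped except Bax with Mcl1 and Bbc3 with Bcl2. This overlap compares values from different libraries. Within every library Bax was at rank 1, Mcl1 at rank 2 and Bcl2 at rank 10. Members further apart were still separated across the vehicle libraries, as every vehicle value of Mcl1 was above every vehicle value of Pmaip1, Bcl2l11 and Bbc3. Bbc3 ranked seventh in all 25-HC libraries, and in vehicle it ranked eighth in vehicle 1 and ninth in the other two.

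**Figure D1:**
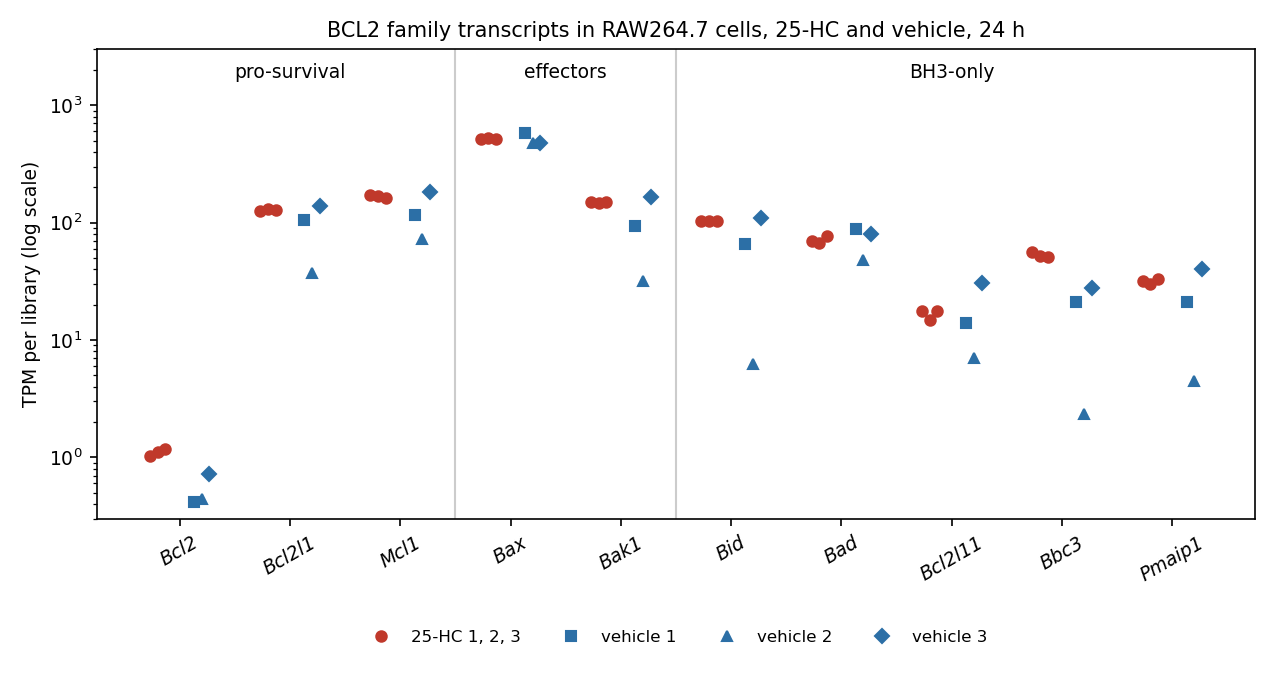
TPM of the 10 members in each library on a log scale, with 25-HC libraries (circles) left of the vehicle libraries (square, vehicle 1; triangle, vehicle 2; diamond, vehicle 3). The 25-HC points lie on top of each other, vehicle 2 is far below them for Bid, Bbc3 and Pmaip1, and the 25-HC points of Bbc3 and Bcl2 lie above all 3 vehicle points.

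Among the pro-survival genes, Mcl1 and Bcl2l1 carried nearly all of the transcript. Mcl1, a short-lived protein that binds BIM, NOXA and BAK, was at 172, 169 and 162 TPM in 25-HC and at 117, 71.9 and 182 TPM in vehicle. Its 25-HC values lay above vehicle 1 and 2 and below vehicle 3, so the groups overlapped (log2 difference 0.54, SE 0.35, limma adjusted p = 0.396). Bcl2l1, which encodes BCL-XL, was at 127, 131 and 128 TPM in 25-HC and at 105, 36.9 and 138 TPM in vehicle, again between vehicle 1 and vehicle 3. Its log2 difference was 0.65 (SE 0.49, limma adjusted p = 0.419). Both values rest on single vehicle libraries: without vehicle 2 the log2 difference was 0.20 for Mcl1 and 0.092 for Bcl2l1, and without vehicle 3 it was 0.87 for Mcl1 and 1.03 for Bcl2l1.

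Bcl2, which gave the family its name, had the lowest level of the 10. It was at 1.03, 1.10 and 1.18 TPM in 25-HC and at 0.42, 0.44 and 0.72 TPM in vehicle, and contributed at most 0.405% of the pro-survival TPM in any library. Every 25-HC value was above every vehicle value, as was the case for 3608 of the 23429 genes detected in any library. With a mean of 0.815 TPM over the 6 libraries it did not pass the filter, and when the filter was dropped (23429 genes) its log2 difference was 0.47 (SE 0.15, limma adjusted p = 0.478). At 7191 bases Bcl2 has the longest transcript of the 10 members. At this level the pseudocount of 1 shrinks its log2 differences, which were 0.57, 0.55 and 0.29 from vehicle 1, 2 and 3, so they are not set against those of other genes of its length.

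Bax and Bak1, either of which can open the outer membrane, differed in how they followed the vehicle libraries. Bax had a log2 difference of 0.026 (SE 0.16, limma adjusted p = 0.914), and its mean was 1.09-fold that of vehicle 3. Bak1, which sits in the outer membrane from the start, was at 148, 146 and 150.5 TPM in 25-HC and at 93.0, 32.1 and 165 TPM in vehicle. The groups overlapped, with 25-HC above vehicle 1 and 2 and below vehicle 3 (log2 difference 0.89, SE 0.57, limma adjusted p = 0.395). For Bak1 the log2 difference was 0.26 without vehicle 2 and 1.42 without vehicle 3. Bax has the shortest transcript of the 10, at 1100 bases, and Bak1 has 2387 bases.

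Bbc3 was the member with the largest difference between groups. PUMA, its product, is known as a target of p53 and of stress-response factors and binds every pro-survival protein. Bbc3 was at 56.7, 52.4 and 51.3 TPM in 25-HC and at 21.0, 2.34 and 27.5 TPM in vehicle 1, 2 and 3. The groups did not overlap, and the 25-HC mean was 2.55-fold that of vehicle 1, 22.8-fold that of vehicle 2 and 1.94-fold that of vehicle 3. Its log2 difference was 2.09 (SE 0.81), with a Benjamini-Hochberg adjusted p of 0.389 from limma. Without vehicle 2 that difference was 1.12 (SE 0.15, limma adjusted p = 0.0769). Without vehicle 3 it was 2.67 (SE 0.81, limma adjusted p = 0.0752). The exact two-sided permutation test of the 6 libraries gave p = 0.1, the smallest value that 3 against 3 allows.

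Separation of this kind was common in these data: 22.6% of all genes tested were higher in every 25-HC library, and 8.1% were lower. Against that background 1 of the 9 tested members was separated upward and 0 downward, a share no higher than that of all genes. Against vehicle 3 alone, the library without the trend in transcript length, the 25-HC mean was at least 1.5-fold higher for 8.72% of the genes tested and at least 1.5-fold lower for 8.15%. Bbc3 was the 1 tested member past that fold upward, and 95.03% of tested genes had a smaller ratio. Bcl2l11 was the 1 past it downward, and 3.70% of tested genes had a smaller ratio. The other 7 tested members lay between 0.789-fold (Pmaip1) and 1.09-fold (Bax) of vehicle 3.

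Beside the trends in length and GC content, the values of Bbc3 were as follows. Its longest transcript has 1814 bases, below the median of 3025 bases over the genes tested, and genes in its length bin had a median log2 difference of 0.039 from vehicle 1, 0.83 from vehicle 2 and -0.075 from vehicle 3. Bbc3 differed from the same 3 libraries by 1.31, 4.03 and 0.93. Its GC content of 65.2% is above the start of the highest sixth of genes (56.2%), which had a median log2 difference of 0.11, 0.81 and -0.13 from vehicle 1, 2 and 3. After a correction for transcript length alone, its log2 difference was 1.72 (limma adjusted p = 0.226). After one for length and GC content together it was 1.91 (SE 0.63, limma adjusted p = 0.248) and the groups still did not overlap, as was the case for 16.4% of genes upward and 18.4% downward. After rescaling of each library by its median ratio, Bbc3 was at 44.9, 42.1 and 40.8 rescaled TPM in 25-HC and at 21.6, 5.72 and 20.9 rescaled TPM in vehicle, with a log2 difference of 1.55 (18.7% of genes separated upward and 17.9% downward).

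**Figure D2:**
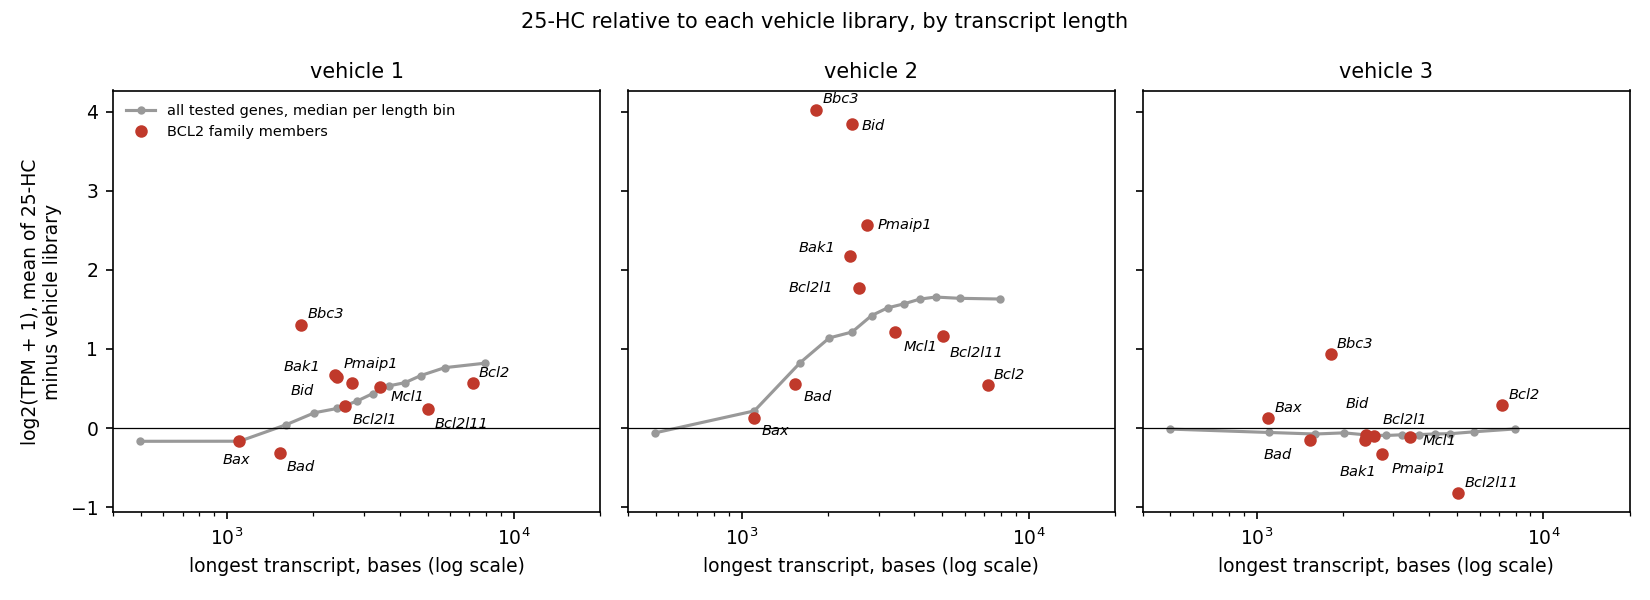
Log2(TPM + 1) of the 25-HC mean minus that of each vehicle library for the 10 members (red) against the length of their longest transcript on a log scale; the grey line is the median of all tested genes in 12 length bins. Bbc3 lies above the grey line in all 3 panels (1.31, 4.03 and 0.93), and Bcl2l11 lies below it in all 3 (0.24, 1.16 and -0.82). The points of Bcl2, which did not pass the filter, are shrunk by the pseudocount and are not read against the line.

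Bcl2l11 went the other way against vehicle 3, with a direction that depended on the vehicle library. BIM, its product, binds all pro-survival proteins and is known to be held down by growth factor signalling. It was at 17.7, 14.9 and 17.8 TPM in 25-HC and at 14.1, 6.97 and 30.5 TPM in vehicle. The 25-HC values lay above vehicle 1 and 2 and below vehicle 3, and the log2 difference was 0.19 (SE 0.52, limma adjusted p = 0.802). The transcript is long, at 5036 bases, and genes of that length bin had a median log2 difference of 0.66 from vehicle 1 and 1.66 from vehicle 2, against 0.24 and 1.16 for Bcl2l11. With the correction for length and GC content the sign turned, to -0.59 (SE 0.16, limma adjusted p = 0.211). Every 25-HC value was then below every vehicle value, as was the case for 18.4% of genes after that correction. Median-ratio rescaling also put every 25-HC library below, at 14.1, 11.96 and 14.2 rescaled TPM in 25-HC and 14.5, 17.1 and 23.2 rescaled TPM in vehicle. After that rescaling 17.9% of genes were lower in every 25-HC library.

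**Figure D3:**
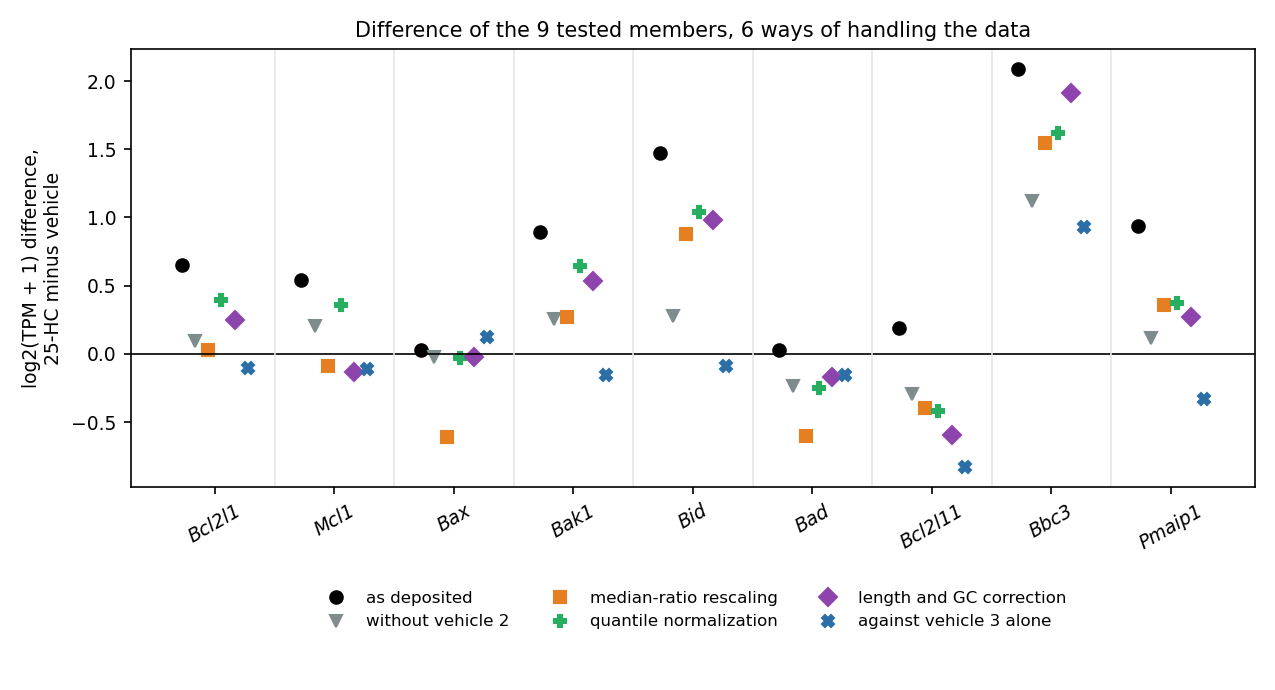
Log2(TPM + 1) difference, 25-HC minus vehicle, of the 9 tested members in 6 ways of handling the data, with a line at 0. Bbc3 stays between 0.93 and 2.09, Bcl2l11 is at 0.19 as deposited and between -0.30 and -0.83 in the other 5, and Bak1, Bid, Pmaip1 and Bcl2l1 are positive in all but the comparison with vehicle 3 alone.

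The differences of Pmaip1 and Bid, like those of Bcl2l1, Mcl1, Bak1 and Bbc3, were smaller without vehicle 2. Pmaip1 encodes NOXA, which binds MCL1 and promotes its loss, and was at 31.5, 30.2 and 33.1 TPM in 25-HC and at 21.0, 4.48 and 40.1 TPM in vehicle. The groups overlapped, as 25-HC was below vehicle 3 (log2 difference 0.94, SE 0.72, limma adjusted p = 0.427). Bid, which links death receptors to the mitochondrion once caspase-8 cuts it, was at 104, 103 and 103 TPM in 25-HC and at 65.2, 6.21 and 109.6 TPM in vehicle. Its log2 difference of 1.47 (SE 0.98, limma adjusted p = 0.399) was 0.28 (SE 0.23, limma adjusted p = 0.507) without vehicle 2, and that of Pmaip1 was 0.12 (SE 0.28, limma adjusted p = 0.817). Without vehicle 3 they were 2.25 for Bid and 1.57 for Pmaip1. In vehicle 2 Bid was 17.7-fold lower than in the highest vehicle library, the widest spread among the 10 members.

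Bad, whose product is held inactive by phosphorylation and 14-3-3 proteins, was at 70.1, 67.2 and 76.2 TPM in 25-HC and at 88.6, 48.1 and 79.2 TPM in vehicle. The groups overlapped, with 25-HC below vehicle 1 and 3 and above vehicle 2 (log2 difference 0.028, SE 0.29, limma adjusted p = 0.9497). Without vehicle 2 every 25-HC value was below both remaining vehicle values (log2 difference -0.23, SE 0.10, limma adjusted p = 0.309). The same was true of 2040 of the 12092 genes tested.

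Ratios between members within a library do not change with the scaling of that library, although trends in transcript length still reach them. Mcl1 to Bcl2l11 was 9.70, 11.4 and 9.12 in 25-HC and 8.29, 10.3 and 5.95 in vehicle 1, 2 and 3, with overlap. Bcl2l1 to Bax was 0.247, 0.248 and 0.249 in 25-HC, between vehicle 3 (0.290) and vehicle 1 (0.181), and vehicle 2 was at 0.0773. Summed pro-survival to summed effector transcripts were at 0.453, 0.448 and 0.438 in 25-HC and at 0.329, 0.214 and 0.4996 in vehicle. Summed pro-survival to summed BH3-only transcripts were at 1.07, 1.13 and 1.04 in 25-HC and at 1.06, 1.60 and 1.12 in vehicle. None of these 4 ratios separated the groups.

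The make-up of the BH3-only group is given as a description, since its measures were chosen after the values were seen and restate the levels of Bbc3 and Bcl2l11 above. Bbc3 was 20.3%, 19.6% and 18.3% of the summed TPM of the 5 BH3-only genes in 25-HC, against 10.00%, 3.44% and 9.59% in vehicle 1, 2 and 3. Bcl2l11 was 6.34%, 5.56% and 6.33% in 25-HC and 6.70%, 10.2% and 10.6% in vehicle. Bad was 25.1%, 25.2% and 27.1% in 25-HC and 42.2%, 70.6% and 27.6% in vehicle. The 25-HC shares of Bbc3 were all above those of vehicle, and the shares of Bcl2l11 and Bad were all below. The ratio of Bbc3 to Bcl2l11 was 3.19, 3.52 and 2.88 in 25-HC, above the 1.49, 0.336 and 0.902 of vehicle 1, 2 and 3. The sum over the BH3-only genes was 267 to 281 TPM in 25-HC and 209.9, 68.1 and 287 TPM in vehicle 1, 2 and 3. The Bbc3 transcript is shorter and richer in GC than that of Bcl2l11, and the part of the length trend in these ratios was not tested.

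**Figure D4:**
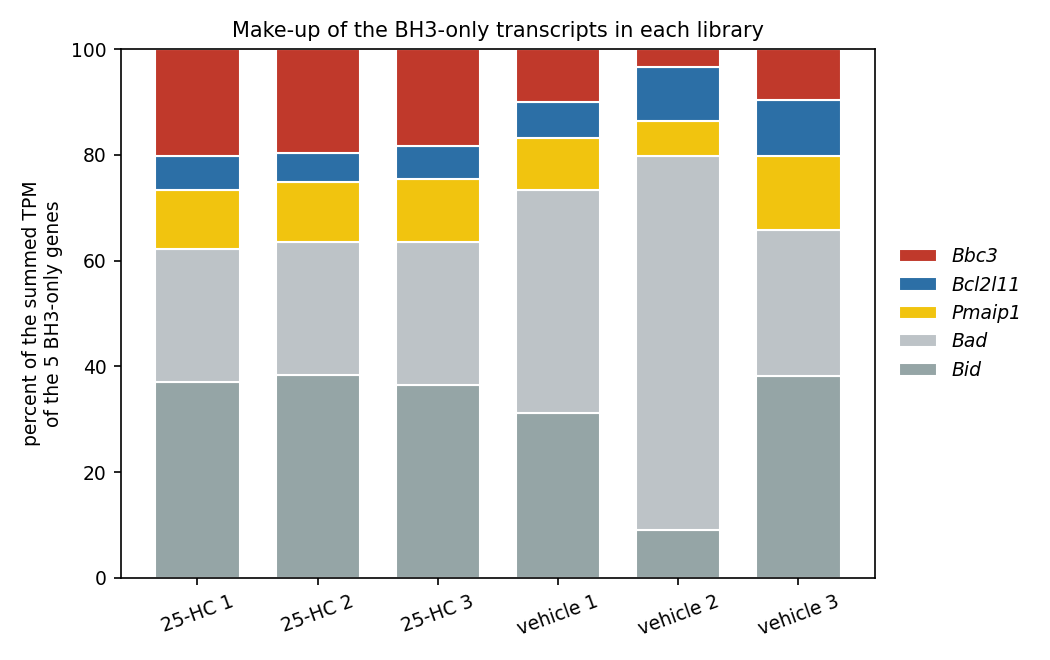
Share of each BH3-only gene in the summed TPM of the 5 BH3-only genes, 1 bar per library, 25-HC left of vehicle. Bbc3 (red, top) takes 18.3% to 20.3% in 25-HC and 3.44% to 10.00% in vehicle, and Bad takes 70.6% in vehicle 2.

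Among other genes of the family, 2 of the 4 mouse Bcl2a1 genes, Bcl2a1b and Bcl2a1d, were higher in every 25-HC library. These genes encode the pro-survival protein A1, known from inflammatory signalling in macrophages. Of 17 further family genes listed, 16 were in the table and 10 were tested. None was called, 2 were higher and 1 lower in every 25-HC library (22.6% and 8.1% of all genes tested), and the median log2 difference was 0.73, against 0.52 over all genes tested. Bcl2a1b was at 108, 113 and 104 TPM in 25-HC and at 76.9, 56.8 and 65.3 TPM in vehicle (limma adjusted p = 0.389). Bcl2a1d was at 75.2, 73.7 and 80.1 TPM in 25-HC and at 50.3, 37.7 and 48.3 TPM in vehicle (limma adjusted p = 0.389). Bcl2a1c, named after the values were seen, overlapped between groups, at 0.25, 2.79 and 1.24 TPM in 25-HC and at 0.77, 1.28 and 0.85 TPM in vehicle, and Bcl2a1a did not reach 1 TPM. These copies are nearly identical in sequence and how shared reads were divided is unknown, so the level of each copy is uncertain. Bcl2l15, a family member of uncertain function, was lower in every 25-HC library, at 10.9, 10.6 and 8.41 TPM in 25-HC and at 39.8, 119 and 18.8 TPM in vehicle (limma adjusted p = 0.389). Bnip3, an outer-membrane receptor for mitophagy, overlapped, at 81.1, 77.2 and 81.3 TPM in 25-HC and 55.7, 8.58 and 117 TPM in vehicle. The BH3-only gene Hrk was listed at 0 in all 6 libraries.

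Genes of the apoptosome and the caspases showed no call either. Of 13 listed genes of the apoptosome and the caspases, 12 were tested, 1 was higher and 1 lower in every 25-HC library (22.6% and 8.1% of all genes tested), and the median log2 difference was 0.60. Htra2, a mitochondrial protease, was at 145, 142 and 144 TPM in 25-HC and at 153, 61.9 and 170 TPM in vehicle. Cycs, which encodes cytochrome c, was at 62.9, 63.0 and 60.3 TPM in 25-HC and at 86.0, 50.1 and 84.0 TPM in vehicle. Aifm1, which encodes apoptosis-inducing factor, was at 60.8, 61.9 and 60.7 TPM in 25-HC and 75.4, 54.0 and 77.6 TPM in vehicle. Both lay below vehicle 1 and 3 and above vehicle 2. Diablo, which releases caspases from their inhibitors, was at 31.8, 34.6 and 33.8 TPM in 25-HC and at 29.4, 13.5 and 36.2 TPM in vehicle. The separated pair, named after the values were seen, were Casp9, the initiator caspase of the apoptosome, at 24.5, 23.5 and 24.0 TPM in 25-HC and 7.07, 1.18 and 22.6 TPM in vehicle, and Endog, a mitochondrial nuclease, at 14.2, 12.5 and 14.3 TPM in 25-HC and 20.4, 35.6 and 15.7 TPM in vehicle.

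Of 9 inhibitors of apoptosis, 8 were tested and 5 were higher in every 25-HC library (Birc3, Naip2, Naip5, Birc6 and Xiap, the last 3 of them named after the values were seen), where 22.6% of all genes tested were, with a median log2 difference of 0.88 and no call. Birc5, the mitotic inhibitor survivin, was at 150.2, 160 and 149 TPM in 25-HC and at 184, 85.7 and 166 TPM in vehicle. Cflar, which encodes the caspase-8 inhibitor FLIP, was at 25.1, 23.9 and 24.1 TPM in 25-HC and at 16.5, 14.2 and 28.9 TPM in vehicle. Birc3, a ubiquitin ligase of NF-kB signalling, was at 18.2, 17.9 and 20.02 TPM in 25-HC and at 11.1, 2.12 and 17.7 TPM in vehicle, so that vehicle 3 was close to the treated libraries. Naip2, a sensor of bacterial proteins, was at 4.29, 3.87 and 4.73 TPM in 25-HC and at 1.15, 0.23 and 2.68 TPM in vehicle.

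Of 22 partners and regulators of the members, all were tested, 7 were higher and 1 was lower in every 25-HC library (22.6% and 8.1% of all genes tested), none was called, and the median log2 difference was 0.64. Ywhae, a 14-3-3 protein of the kind that holds phosphorylated BAD, was at 430, 407 and 452 TPM in 25-HC and at 231, 87.3 and 527 TPM in vehicle. Vdac2, the outer-membrane channel that recruits BAK, was at 350, 343 and 368 TPM in 25-HC and at 238, 54.4 and 342 TPM in vehicle. Prelid1, a lipid carrier of mitochondria, was at 348, 357 and 353 TPM in 25-HC and at 369, 206 and 368 TPM in vehicle. Ywhae and Prelid1 overlapped between groups, and Vdac2 was only just above vehicle 3 in its lowest 25-HC library. Tmbim6, an endoplasmic reticulum protein also called BAX inhibitor 1, was at 168, 166 and 171 TPM in 25-HC and at 139, 76.5 and 172 TPM in vehicle. The gene lower in every 25-HC library, named after the values were seen, was Bag1, a co-chaperone that binds BCL2.

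Among transcription factors known to act on BH3-only genes, the stress factors Atf4 and Ddit3 were higher in every 25-HC library. Of 11 listed genes, of which Ddit3 has 2 identifiers, 9 entries were tested, 4 were higher in every 25-HC library (22.6% of all genes tested), none was called, and the median log2 difference was 0.95. The 4 were both Ddit3 entries, Atf4 and, named after the values were seen, Cebpb. Atf4, the main factor of the integrated stress response, was at 559, 572 and 567 TPM in 25-HC and at 225, 30.04 and 323 TPM in vehicle (1.75-fold relative to vehicle 3, limma adjusted p = 0.389). Ddit3, which encodes the stress factor CHOP, stood at 615, 795 and 1087 TPM in 25-HC and at 224, 26.2 and 220.1 TPM in vehicle under its more abundant identifier, and at 130.3, 145 and 133 TPM in 25-HC and 52.0, 88.7 and 40.5 TPM in vehicle under the other, ENSMUSG00000025408. How reads were split between these identifiers is unknown, and each level is uncertain. Trp53, which encodes p53, was at 164, 169 and 165 TPM in 25-HC and at 133, 35.6 and 185 TPM in vehicle, with overlap. Relative to vehicle 3 alone, the median log2 difference was -0.025 for the further family genes, -0.23 for the apoptosome and caspases, 0.19 for the inhibitors of apoptosis, -0.046 for the partners and -0.017 for the transcription factors, against -0.071 over all genes tested.

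The genes whose pattern over the 6 libraries was most like that of Bbc3, by Euclidean distance of centred log2(TPM + 1), were Tnfsf9 (0.235), Gm43351 (0.241) and Atf4 (0.242), where the median over all genes was 2.52. Tnfsf9, the ligand of the receptor 4-1BB, was at 43.9, 46.3 and 45.7 TPM in 25-HC and at 17.5, 2.18 and 25.6 TPM in vehicle. For Bax, the member with the highest mean, the nearest were Mok (0.0614), Rps2-ps10 (0.0715) and Commd1 (0.0742), against a median of 1.38. A total of 1106 genes lay within 0.5 of Bax, while 16 lay within 0.5 of Bbc3.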

How the data were processed

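RNA of 6 RAW264.7 libraries (25-HC and vehicle, 3 each, 24 h) was sequenced; per the labels' protocols, libraries came from the TruSeq RNA kit of Illumina. The deposited file gives TPM (transcripts scaled to a fixed total) for every gene in the 6 libraries, as made by the authors, with totals of 1000000 to 1000001; HISAT2, StringTie, RSEM and GRCm39 are named in the submitters' processing notes, with no versions or roles. TPM keeps no depth, so no counting interval is given. A total of 901 rows that repeat a symbol kept their identifier.

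For the 12092 genes whose mean reached 1 TPM, limma 3.58.1 (run under R 4.3.3) compared log2(TPM + 1) between groups. The test was two-sided, with a mean-variance trend, Benjamini-Hochberg adjustment and a threshold of 0.05. Its code was checked on simulated data with equal spread in all libraries, which these data do not have. Log2 differences are 25-HC minus vehicle on the log2(TPM + 1) scale, which understates low genes. Folds are ratios of mean TPM. Lengths and GC content are of the longest transcript in GENCODE M21, found for 92.1% of tested genes; trends were removed per library by loess (span 0.75, degree 2). The members, lists and settings were chosen with earlier results of these data known. All members are named; from the other lists, the 4 genes of highest mean TPM and any called, and others only where said to be named after their values were seen. Other settings were pseudocounts of 0.1 and 5, other filters, rescaling, quantile normalization, moderation, blocking on replicate number and omission of single libraries. The correction for GC content, alone or with length, rescaling without vehicle 2, and the fold of 1.5 were chosen after seeing the data. Tables were handled with pandas 2.3.3 under Python 3.11.15; scipy 1.17.1 gave the permutation tests, and figures were drawn by matplotlib 3.10.9.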

Additional observations from a re-analysis of the deposited data

How the results depend on the processing

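Bbc3 kept its direction in all settings tried, with log2 differences of 0.97 to 2.67 over the 19 other tested settings and 0.93 against vehicle 3 alone. Its limma adjusted p was 0.0471 after rescaling without vehicle 2 (chosen after seeing the data, and the 1 setting in which a member was called) and 0.0752 to 0.620 otherwise.

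The number of genes called higher, 1 as deposited, was 0 with a pseudocount of 5, with no filter, with a mean of at least 5 TPM and under the replicate block, 4 after quantile normalization, 8 after GC correction, 16 after length correction, 12 after both and 35 after rescaling without vehicle 2. The number called lower, 0 as deposited (356 at an unadjusted p under 0.05), was 1 after median-ratio rescaling, after quantile normalization and after both corrections, 2 after GC correction, 3 after length correction and 11 after rescaling without vehicle 2. Leaving out 1 library gave 0 to 671 higher and 0 to 51 lower calls; without vehicle 3 there were 671 and 51, without vehicle 2 there were 9 and 4. Members called stayed at 0 in each of these 6. Members higher in every 25-HC library, 1 as deposited, were 2 with no filter, where Bcl2 enters and 3608 of 23429 genes were higher in that way. They were 2 against vehicle 3 alone and 1 to 7 with a library left out (7 without vehicle 3 and 2 without vehicle 1). Of all 12092 genes, 7194 were higher in that way without vehicle 3, 2946 without vehicle 1 and 3441 against vehicle 3 alone. Members lower in every 25-HC library, 0 as deposited, were 1 (Bcl2l11) after median-ratio rescaling (2165 of 12092 genes), quantile normalization (2092) and rescaling without vehicle 2 (2690). Bcl2l11 was also the 1 after length correction (2083 of 11132 genes), GC correction (1844) and both (2047). Against vehicle 3 alone 7 members were lower (5525 of all genes). With a library left out the number was 0 to 1, the 1 being Bad without vehicle 2 (2040 of all genes).

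Signs turned as follows. Against vehicle 3 alone the log2 differences were -0.10 for Bcl2l1, -0.11 for Mcl1, -0.16 for Bak1, -0.089 for Bid, -0.16 for Bad, -0.83 for Bcl2l11 and -0.33 for Pmaip1. After median-ratio rescaling they were -0.092 for Mcl1, -0.61 for Bax, -0.60 for Bad and -0.40 for Bcl2l11. After quantile normalization they were -0.030 for Bax, -0.25 for Bad and -0.42 for Bcl2l11. After length correction they were -0.087 for Mcl1, -0.089 for Bax, -0.25 for Bad and -0.55 for Bcl2l11, after GC correction -0.034, -0.14, -0.29 and -0.41, and after both -0.13, -0.023, -0.17 and -0.59. After rescaling without vehicle 2 they were -0.056 for Bcl2l1, -0.17 for Bax, -0.38 for Bad, -0.44 for Bcl2l11 and -0.025 for Pmaip1. With a library left out, Bax ranged from -0.023 to 0.12, Bad from -0.23 to 0.20 and Bcl2l11 from -0.30 to 0.70. The cause was not tested. The rescaling moved the median of all genes from 0.52 to 0.0085.

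Same-numbered libraries had correlations of deviations of -0.0128, 0.0555 and 0.0296. 25-HC 1 correlated best with vehicle 3 (0.0526), while 25-HC 2 and 25-HC 3 correlated best with the vehicle library of their own number. All these values are small, so they cannot settle whether replicate numbers pair the libraries. The replicate block gave 0 higher and 0 lower calls and changed no member's call. TPM without counts leaves the depth behind Bcl2 and other low genes unknown.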

Other observations

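Other routes of cell death were looked at in 2 lists added after the data were seen. Of 12 genes of pyroptosis and necroptosis, 9 were tested, none was called by limma, and 4 were higher and 1 lower in every 25-HC library, where 22.6% and 8.1% of all genes tested were. Ninj1, which encodes a protein of plasma membrane rupture, was the gene lower in every 25-HC library, at 162, 155 and 157 TPM in 25-HC and at 176, 163 and 167 TPM in vehicle. Ripk3, a kinase of necroptosis, was at 67.2, 71.2 and 68.9 TPM in 25-HC and at 79.8, 111 and 66.9 TPM in vehicle. Gsdmd, the pore-forming protein of pyroptosis, was at 42.2, 39.7 and 41.5 TPM in 25-HC and at 38.1, 39.0 and 40.6 TPM in vehicle. Ripk3 and Gsdmd overlapped between groups. Nlrp3, an inflammasome sensor, overlapped too, at 20.5, 20.1 and 19.8 TPM in 25-HC and at 8.73, 0.94 and 21.3 TPM in vehicle. The 4 higher genes, named after the values were seen, were Ripk1, Casp1, Gsdme and Casp4. Casp4, the one with the largest fold over vehicle 3 (2.82), was at 4.25, 3.86 and 4.41 TPM in 25-HC and at 1.87, 1.02 and 1.48 TPM in vehicle.

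Of 8 genes of death receptors and their adaptors, 7 were tested, none was called by limma, and 1 was higher in every 25-HC library (22.6% of all genes tested). That gene, named after the values were seen, was Fas, at 1.88, 1.93 and 1.44 TPM in 25-HC and 0.70, 0.18 and 1.21 TPM in vehicle. The most abundant were Tnfrsf1a, a receptor of TNF, at 32.8, 32.0 and 29.5 TPM in 25-HC and at 23.5, 5.19 and 32.1 TPM in vehicle, and the adaptor Tradd, at 17.3, 19.7 and 17.0 TPM in 25-HC and at 20, 10.4 and 20 TPM in vehicle. Traf2, another adaptor, was at 13.4, 15.3 and 16.2 TPM in 25-HC and at 16.0, 9.67 and 15.8 TPM in vehicle. Tnfrsf1b, the other TNF receptor, was at 7.80, 7.98 and 7.37 TPM in 25-HC and at 3.31, 1.15 and 7.93 TPM in vehicle. All of these 4 overlapped between groups.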
